A study of Mus musculus with 8 samples.

Results

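Hsd3b5 and 8 genes of the major urinary protein family (Mup1, Mup2, Mup3, Mup7, Mup11, Mup17, Mup20 and Mup21) were examined in mouse liver, 9 genes among 52550 with an Ensembl identifier in the count tables. They were picked by name as growth hormone-dependent genes that mature late in hepatocytes, with the difference between the 2 groups below already known. Their fold changes in that contrast are therefore given as a description. Of the 9 genes, 7 had enough counts to be tested with the 8669 genes of the genome-wide comparison, and Mup2 and Mup7 did not.

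All libraries came from livers of male C57BL/6 mice aged 6 weeks, 4 labelled PiZ and 4 labelled PiZ/Chop-/-. Both groups carry PiZ, a transgene for the Z variant of human alpha-1 antitrypsin, a secreted protease inhibitor that misfolds and accumulates in the endoplasmic reticulum of hepatocytes. The PiZ/Chop-/- group also lacks Chop (Ddit3), a transcription factor of the C/EBP family made during endoplasmic reticulum stress. The comparison asks how Hsd3b5 and the Mup genes differ when CHOP is missing from livers that make the Z protein. The wild-type group that the study's design also names was not analysed here, so neither group can be set against a liver without the transgene. The sources used here do not give the transgene's promoter, whether Chop is deleted in every cell type, the breeding scheme or the hour of collection.

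Major urinary proteins are small lipocalins, proteins with a ligand-binding pocket, that adult mouse hepatocytes secrete into blood and that pass into urine, where they bind volatile pheromones. They are encoded by a large cluster of near-identical genes on chromosome 4. Hsd3b5 encodes a steroid dehydrogenase of male mouse liver that works as a ketosteroid reductase. In mice, both switch on around sexual maturity under the male, pulsatile pattern of growth hormone, which acts through its receptor, JAK2 and STAT5, and both are long-standing markers of the male liver programme.

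The family shares its promoter design, and 4 upstream stretches are shown because they belong to the most abundant members and to the closest relative of Mup3. A promoter table from RefSeq (GRCm38.p6, the mm10 assembly) matched 7 of the 9 members, with Mup1 and Mup20 not among them. Each line below gives the 210 bases from 250 to 41 before the RefSeq start, 5′ to 3′ on the minus strand of chromosome 4. Capitals mark ATCAAT, the core recognised by ONECUT factors (Onecut1 is HNF6, a hepatocyte factor that takes part in growth hormone-dependent transcription), searched on both strands. Mup3 lies at chr4:62087358-62087567, Mup21 at chr4:62150882-62151091, Mup17 at chr4:61595873-61596082 and Mup11 at chr4:60662436-60662645.
Mup3: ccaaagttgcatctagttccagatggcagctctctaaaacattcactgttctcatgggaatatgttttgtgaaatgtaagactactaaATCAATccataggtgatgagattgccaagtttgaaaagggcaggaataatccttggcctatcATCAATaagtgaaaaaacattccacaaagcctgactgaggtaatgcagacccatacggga
Mup21: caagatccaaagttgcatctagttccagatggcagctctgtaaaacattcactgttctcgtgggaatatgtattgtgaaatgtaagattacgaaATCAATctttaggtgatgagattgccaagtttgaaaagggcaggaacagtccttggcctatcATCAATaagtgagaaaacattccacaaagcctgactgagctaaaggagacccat
Mup17: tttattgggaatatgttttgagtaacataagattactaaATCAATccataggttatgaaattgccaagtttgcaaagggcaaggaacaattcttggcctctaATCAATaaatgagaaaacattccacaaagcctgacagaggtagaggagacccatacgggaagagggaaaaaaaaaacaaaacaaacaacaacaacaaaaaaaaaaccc
Mup11: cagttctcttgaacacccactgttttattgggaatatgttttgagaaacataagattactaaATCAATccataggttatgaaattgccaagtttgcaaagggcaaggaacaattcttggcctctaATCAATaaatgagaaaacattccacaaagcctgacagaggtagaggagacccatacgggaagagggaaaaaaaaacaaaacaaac
Each of these 4 stretches held 2 copies of ATCAAT. In Mup3 the copies began 162 and 100 bases before the start, and in Mup17 they began 211 and 148 bases before it. All 14 Mup promoters in the table held at least 1 copy, against 6.01% of 32841 mouse promoters of the same length. The 14 resemble each other closely, so they do not count as 14 separate cases. The motif was chosen after these sequences had been read, and a match is a description of the letters, not a binding site. None of the 14 held TTCNNNGAA (STAT5; 6.02% of promoters), TTGCNNAA (C/EBP; 8.44%) or TGCAAT (bound by CHOP with a C/EBP partner; 6.44%), which says only that these letters are not in this window. Over their aligned bases, Mup17 and Mup11 were 98.9% identical, Mup3 and Mup21 93.6%, and Mup3 and Mup11 85.9%. No promoter is shown for Hsd3b5, because its RefSeq start lies 15282 bases from the start in the GENCODE annotation; the stretch before that RefSeq start held none of the 4 motifs. Of the 14 Mup starts, 12 lie within 45 bases of the GENCODE start, and those of Mup2 and Mup6 lie 14433 and 39187 bases away.

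The libraries read messenger RNA at its 3′ end (QuantSeq), so the 3′ ends decide which family members can be told apart. Among the 226 windows of 75 bases (1 read) in the last 300 bases of its transcript, Mup3 and Mup20 matched no other transcript in any window, and neither did Hsd3b5. Mup21 was unique in 95.1% of windows, Mup17 in 77.9% and Mup11 in 54.0%. For Mup7 the share was 1.33%, and for Mup1 and Mup2 it was 0%. Values of Mup1, Mup2 and Mup7 are therefore uncertain as single genes, those of Mup11 and Mup17 partly so, and the level summed over all Mup genes is given beside them. No source used here says how reads with several matches were treated, and reads dropped for that reason would be missing from the sum too.

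Total counts per library ran from 1650260 in PiZ library 1 to 3064385 in PiZ library 3. Levels are CPM (read counts divided by the library's TMM-scaled total and put on a common scale), and since the kit reads each transcript near its 3′ end they were not divided by gene length. The labels held against the deleted gene: Ddit3 had 180 to 595 counts in the PiZ libraries and 3 to 9 in the PiZ/Chop-/- libraries. Xist had at most 3 counts in any library, and the Y-linked gene Ddx3y lay between 86.4 and 131 CPM in all 8, as the male label requires. The summed level of 11 hepatocyte markers was 78728 to 89689 CPM in PiZ and 76052 to 87153 CPM in PiZ/Chop-/-. The labels do not say that each library is a separate mouse, so the p-values speak only for the spread among the 8 libraries, and in whole liver fewer hepatocytes of a kind and less RNA per hepatocyte cannot be told apart.

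PiZ library 1 stood apart in the genes described here. All 12 tested Mup genes and Hsd3b5 had their lowest value of the 8 libraries there, as did 13.3% of all genes tested. Set against the median of PiZ libraries 2 to 4, its log2 level differed by -2.13 for Hsd3b5, by -3.04 for Mup3 and by -3.87 for Mup17. The last of these ranked 6 from the lowest of 8669 genes. Its summed hepatocyte markers, 86739 CPM, were within the range of the other libraries. The part that this library's depth, the lowest of the 8, plays was not tested. Values are given with and without it where it matters.

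Hsd3b5 was the member with the clearest separation. In PiZ libraries 1 to 4 it had 1.23, 8.74, 4.50 and 8.54 CPM, and in PiZ/Chop-/- libraries 1 to 4 it had 58.5, 64.9, 26.3 and 34.0 CPM. Every PiZ/Chop-/- library was above every PiZ library, and within PiZ/Chop-/- libraries 1 and 2 were the highest. The means were 5.75 ± 3.59 CPM (SD, n = 4) and 46.0 ± 18.7 CPM (SD, n = 4), a ratio of 7.99. On the log2 scale the fold change came to 2.96 (SE 0.43, adjusted p = 0.00353 by edgeR's quasi-likelihood test), and without PiZ library 1 it was 2.69 (SE 0.38, adjusted p = 0.00302). The PiZ values rest on 2, 18, 14 and 18 counts, and the 95% Poisson interval in PiZ library 1 was 0.149 to 4.44 CPM (intervals cover counting error only). The gene lies at chr3:98618634-98630252 on the minus strand (mm10).

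Hsd3b5 was the only member past the adjusted p of 0.05, 1 of 7 tested, in a comparison where 1.03% of all genes passed in either direction and 0.335% passed as higher. Without PiZ library 1, Hsd3b5 and Mup3 passed, where 0.269% of all genes passed as higher. The members that passed were 2 with DESeq2 (background 0.909%), 3 without a filter (0.882%) and 2 without PiZ libraries 1 and 4 (0.355%). Since the members were chosen with this contrast known, nothing is read from those counts. All 7 log2 fold changes were positive, from 0.96 to 3.05. Groups did not overlap in 3 of the 7 (Hsd3b5, Mup3 and Mup1), where 3.66% of all genes tested lay higher without overlap and 4.22% lower; 0.692% of all genes passed as lower, and no member did.

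**Figure D1:**
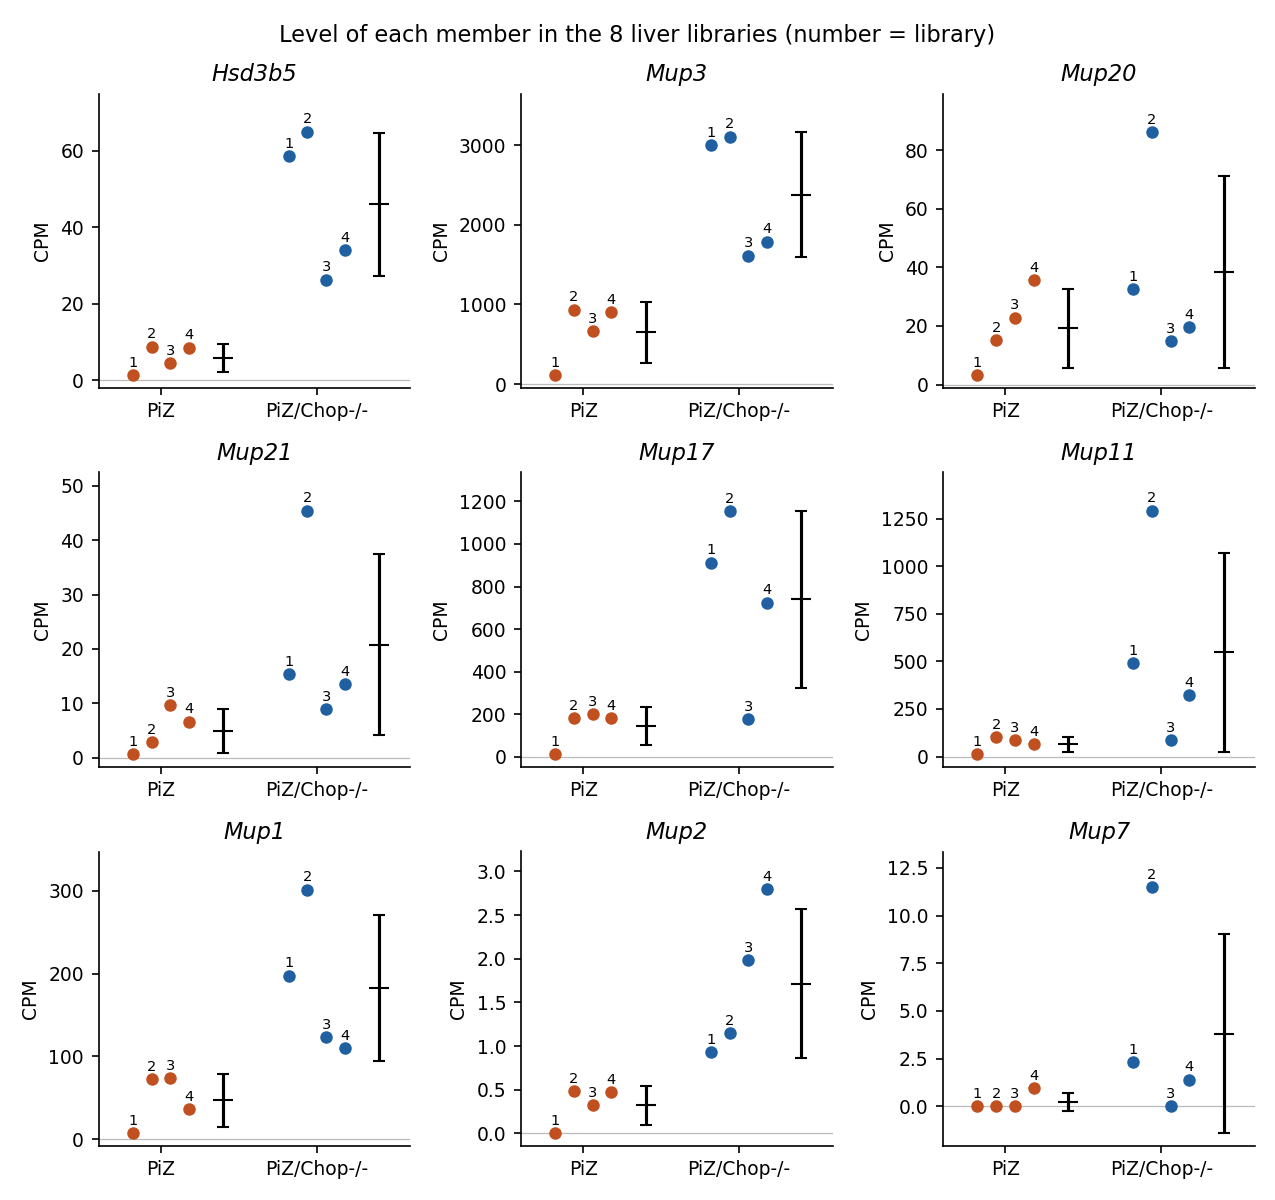
Level of each of the 9 genes in CPM (vertical axes, each with its own scale) in the 4 PiZ (orange) and 4 PiZ/Chop-/- (blue) libraries; digits are library numbers, and black bars are the mean ± SD of 4 libraries. Hsd3b5, Mup3, Mup1 and Mup2 show no overlap between the groups, while PiZ/Chop-/- library 3 falls among the PiZ libraries for Mup17, Mup11, Mup20 and Mup21.

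Mup3 was the most abundant family member in every library, with a 3′ end shared with no other gene. It had 109, 936, 666 and 902 CPM in PiZ libraries 1 to 4 and 3000, 3106, 1611 and 1786 CPM in PiZ/Chop-/- libraries 1 to 4. The groups did not overlap, and within PiZ the first library was far below the other 3. The means were 653 ± 382 and 2376 ± 786 CPM (SD, n = 4 each), and the log2 fold change of 1.86 (SE 0.61) did not pass (adjusted p = 0.265, edgeR). Without PiZ library 1 the difference was smaller and the spread tighter, 1.51 on the log2 scale (SE 0.27), and it passed at an adjusted p of 0.0169. Mup3 lies at chr4:62083476-62087342 on the minus strand.

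Mup17 and Mup11 followed in abundance. Mup17 had 11.7, 182, 201 and 183 CPM in PiZ and 912, 1153, 176 and 724 CPM in PiZ/Chop-/-. Mup11 had 11.1, 101, 84.6 and 65.0 CPM in PiZ and 491, 1292, 85.9 and 324 CPM in PiZ/Chop-/-. For both genes PiZ/Chop-/- library 3 sat at the level of PiZ libraries 2 to 4, so the groups overlapped, and the other 3 PiZ/Chop-/- libraries were above all PiZ libraries. The log2 fold changes were 2.35 (SE 0.89, adjusted p = 0.341) for Mup17 and 3.05 (SE 0.97, adjusted p = 0.269) for Mup11, neither of which passed. Without PiZ library 1 they were 1.98 (adjusted p = 0.214, edgeR) for Mup17 and 2.72 (adjusted p = 0.319) for Mup11, and again neither passed. Apart from library 1, the PiZ libraries were close to each other: the SD of log2 CPM of Mup17 was 1.95 over all 4 and 0.08 over libraries 2 to 4.

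Mup1, each of whose 3′ windows also occurs in at least 1 other Mup gene, had 6.77, 72.4, 73.3 and 36.1 CPM in PiZ and 197, 301, 123 and 109 CPM in PiZ/Chop-/-. The groups did not overlap, but the log2 fold change of 1.93 (SE 0.66) did not pass (adjusted p = 0.296). Mup2 had 0, 1, 1 and 1 counts in PiZ and 2, 2, 4 and 6 in PiZ/Chop-/-, too few to test. Mup7 had 0, 0, 0 and 2 counts in PiZ and 5, 20, 0 and 3 in PiZ/Chop-/-. For its 0 counts in PiZ library 1 the 95% Poisson interval reached up to 2.27 CPM. From pooled counts, the PiZ/Chop-/- over PiZ ratio was 5.16 (95% interval 1.44 to 28.0, counting error only) for Mup2 and 15.5 (3.90 to 134) for Mup7.

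Mup20 and Mup21 lie beside Mup3 at the far end of the cluster. Mup20 encodes darcin, a male urinary protein that is itself an attractant signal to females. It had 3.08, 15.1, 22.8 and 35.6 CPM in PiZ and 32.5, 86.2, 14.9 and 19.6 CPM in PiZ/Chop-/-, so the groups overlapped widely. Its log2 fold change of 0.96 (SE 0.75, adjusted p = 0.640) was the smallest of the tested members, and without PiZ/Chop-/- library 2 it was 0.20. Mup21 had 0.615, 2.91, 9.65 and 6.64 CPM in PiZ and 15.3, 45.4, 8.94 and 13.5 CPM in PiZ/Chop-/-. Only PiZ/Chop-/- library 3 fell within the PiZ range of Mup21, and its fold change of 1.93 on the log2 scale (SE 0.66) did not pass (adjusted p = 0.260). Without PiZ/Chop-/- library 2, the highest of the 8 for both genes, that of Mup21 was 1.24.

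The order of mean levels in PiZ was Mup3, Mup17, Mup11, Mup1, Mup20, Hsd3b5, Mup21, Mup2 and Mup7. Each gene was above the next in 4 of 4 PiZ libraries, except Hsd3b5 over Mup21 (3 of 4) and Mup2 over Mup7 (2 of 4). In PiZ/Chop-/- Hsd3b5 moved above Mup20, in 3 of 4 libraries, and Mup7 and Mup2 could not be ordered (2 of 4). Mup17 over Mup11 and Mup11 over Mup1 each held in 3 of 4 PiZ/Chop-/- libraries.

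The table held 22 Mup genes, of which 21 had a count and 12 were tested. The 8 Mup members carried 89.0% of all Mup counts, and Mup3 alone carried 56.0%. Summed over the family, the level was 154, 1496, 1241 and 1375 CPM in PiZ libraries 1 to 4 and 5151, 6640, 2235 and 3456 CPM in PiZ/Chop-/- libraries 1 to 4. The groups did not overlap. The means were 1066 ± 617 CPM and 4371 ± 1928 CPM (SD, n = 4 each), a ratio of 4.10, and without PiZ library 1, where the PiZ mean was 1371 ± 128 CPM (SD, n = 3), the ratio was 3.19. The family took 0.0151% of all counts in PiZ library 1 and 0.624% in PiZ/Chop-/- library 2.

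**Figure D2:**
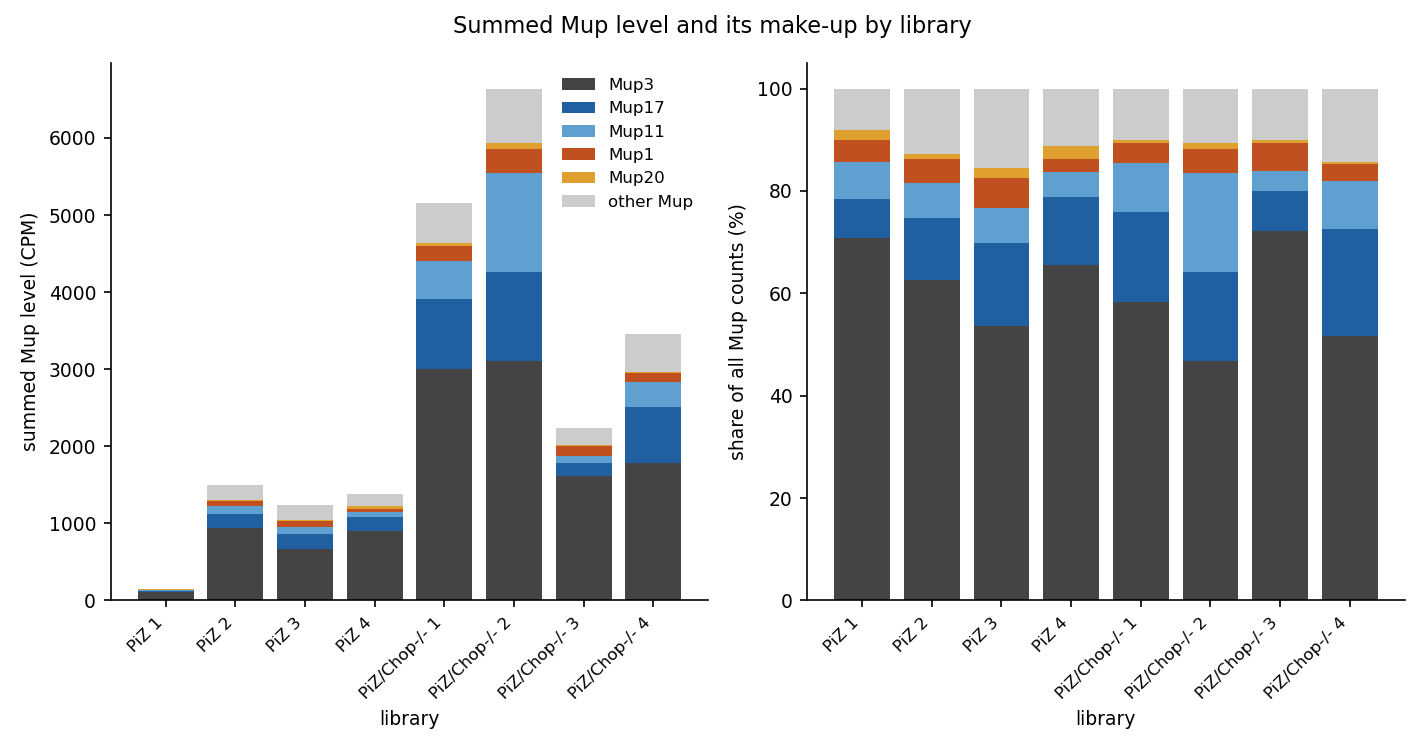
Left, level summed over all Mup genes (CPM) in each library, stacked by gene; right, the same counts as shares of all Mup counts (%). The summed level runs from 154 CPM in PiZ library 1 to 6640 CPM in PiZ/Chop-/- library 2, and Mup3 holds the largest share in each bar.

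Shares of the Mup counts overlapped between the groups for the members described here. Mup3 held 53.7% to 70.8% of Mup counts in the PiZ libraries and 46.8% to 72.1% in the PiZ/Chop-/- libraries. Mup17 held 7.60% to 16.2% in PiZ and 7.88% to 21.0% in PiZ/Chop-/-, and Mup11 held 4.73% to 7.20% and 3.84% to 19.5%. Shares also differed inside the PiZ/Chop-/- group. Mup11 made up 19.5% of Mup counts in library 2 (exact 95% interval 18.7% to 20.2%) and 3.84% in library 3 (3.30% to 4.45%), and Mup3 over Mup11 was 2.40 and 18.8 in those libraries. Mup20 held 1.01% to 2.59% of Mup counts in PiZ and 0.566% to 1.30% in PiZ/Chop-/-, ranges that overlap.

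The 6 other Mup genes tested had fold changes like those of the members, but most of their 3′ windows were shared with other Mup genes. The unique share was 39.4% for Mup9, 28.8% for Mup18, 25.2% for Mup16, 22.1% for Mup12 and 0% for Mup10 and Mup15. Their values as single genes are therefore uncertain, and they cannot be taken as separate from the members. All 6 had positive log2 fold changes, from 1.57 (Mup10) to 2.00 (Mup16), and none passed with edgeR, with adjusted p-values from 0.0861 (Mup9) to 0.384 (Mup18). At an unadjusted p below 0.05, reached by 13.1% of all genes tested, there were 5 of 6. DESeq2 called 2 as higher (Mup9 and Mup12; 0.909% of all genes) and limma-voom 0. Mup9 had 1.23, 11.7, 10.3 and 7.12 CPM in PiZ and 20.9, 28.7, 14.9 and 37.3 CPM in PiZ/Chop-/-. Mup9, Mup12 and Mup18 did not overlap between the groups (3.66% of all genes in that direction), and Mup10, Mup15 and Mup16 did. Without PiZ library 1, Mup18 passed (1.32 on the log2 scale, SE 0.28, adjusted p = 0.0398). The median log2 fold change was 1.69 over these 6 genes, 1.93 over the 7 tested members and -0.0016 over all genes tested. The remaining 7 (Mup4, Mup5, Mup6, Mup8, Mup13, Mup14 and Mup19) had 1 to 47 counts in all libraries together.

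**Figure D3:**
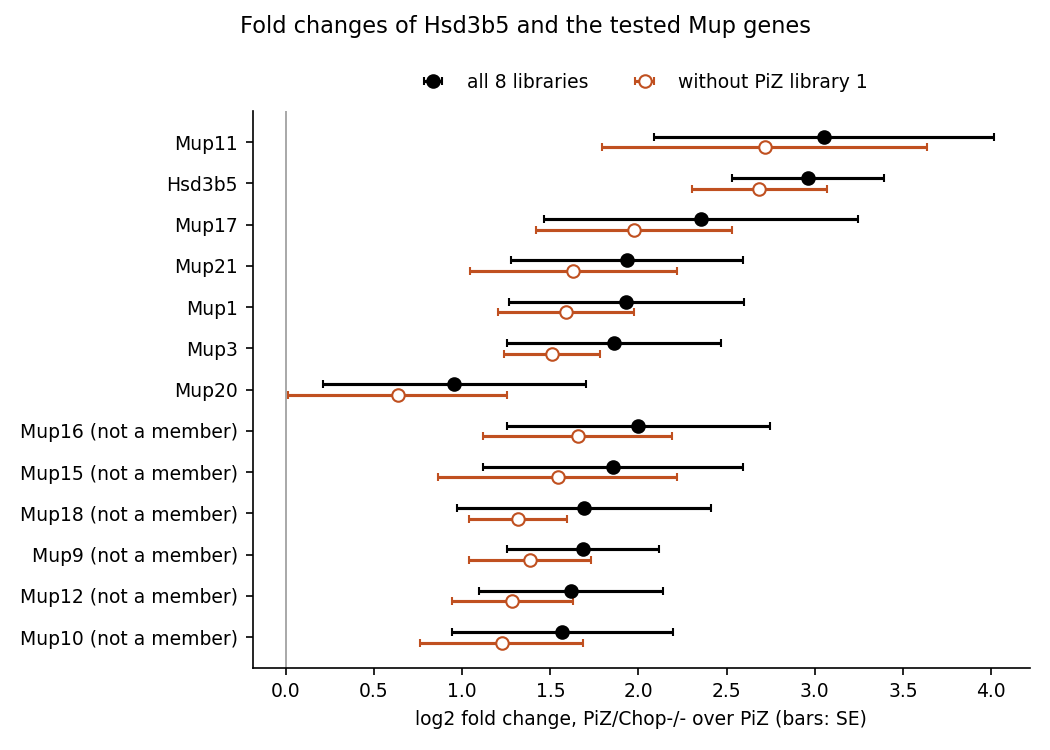
Log2 fold change of PiZ/Chop-/- over PiZ (horizontal axis, bars ± SE) for Hsd3b5 and the 12 tested Mup genes, with all 8 libraries (filled) and without PiZ library 1 (open). Every point lies right of 0; without PiZ library 1 each estimate is smaller, and the value of Mup3 goes from 1.86 to 1.51 with an SE that goes from 0.61 to 0.27.

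Within each group, Hsd3b5 and the summed Mup level ranked the libraries in the same order, with the same rank in 8 of 8 libraries. In PiZ/Chop-/- the order was 2, 1, 4 and 3 from the highest down, and in PiZ it was 2, 4, 3 and 1. Hsd3b5 had 18 counts in both PiZ libraries 2 and 4, so their order for this gene rests on library scaling alone. PiZ library 3, with 14 counts, was within counting error of both. Their reads do not overlap, Hsd3b5 being on chromosome 3, but they share library and depth, and no test was made. Mup3 over Hsd3b5 in counts was 107, 148 and 106 in PiZ libraries 2 to 4 and 47.8 to 61.2 in the PiZ/Chop-/- libraries, ranges that do not overlap. In PiZ library 1 it was 88.5, which rests on 2 Hsd3b5 counts, so counting error alone could bring it into the PiZ/Chop-/- range. How often other pairs of genes separate in this way was not examined.

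The genes most like Hsd3b5 over the 8 libraries were found by the root mean square difference of centred log2 CPM. Among 7434 candidates the closest were 0610031O16Rik (0.73), C9 (0.74), Car3 (0.79), Foxq1 (0.79) and Ces3b (0.82), against a median of 1.67. C9, a late complement component, had 48.6, 112, 107 and 120 CPM in PiZ and 306, 387, 220 and 240 CPM in PiZ/Chop-/-. Car3, a carbonic anhydrase abundant in male liver, lay between 1108 and 3046 CPM in PiZ and between 4848 and 7547 CPM in PiZ/Chop-/-. 0610031O16Rik is annotated as antisense, and no source used here gives the strand setting of the counting, so its reads cannot be told from those of an overlapping gene.

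For the summed Mup level the closest genes were Slco1a1 (0.42), Serpina1e (0.51), Serpina12 (0.54), Selenbp2 (0.59) and Csrp3 (0.64), with a median of 1.61. Slco1a1, an organic anion carrier of male liver, had 4.31, 88.4, 100 and 72.6 CPM in PiZ and 238, 256, 176 and 189 CPM in PiZ/Chop-/-. It did not pass with all libraries (log2 fold change 1.68, SE 0.69, adjusted p = 0.370) and passed without PiZ library 1 (1.30, SE 0.21, adjusted p = 0.00968). The profiles share the low value of PiZ library 1, which weighs heavily in this measure.

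Other genes of the male liver programme pointed the same way as the members without passing. In a list of 18 male-biased, growth hormone-dependent genes, 12 were tested, 0 passed with edgeR and all 12 were positive, with a median log2 fold change of 0.84 (all genes tested, -0.0016). At an unadjusted p below 0.05, reached by 13.1% of all genes tested, there were 5. DESeq2 called 1 (Elovl3) and limma-voom 0. Without PiZ library 1, 14 were tested, 1 passed (Slco1a1) and 13 were positive, with a median of 0.52. Those of lowest p were Susd4 (1.19, adjusted p = 0.135), Nudt7 (0.73, 0.200), Cyp2u1 (0.96, 0.238) and Elovl3 (3.35, 0.300). Elovl3, a fatty acid elongase, had 15.4, 35.9, 65.6 and 15.7 CPM in PiZ and 417, 860, 45.7 and 59.6 CPM in PiZ/Chop-/-, so that libraries 1 and 2 of the latter stood far above the rest. Summed over the list, the level was 1114, 6919, 5477 and 5145 CPM in PiZ libraries 1 to 4. In PiZ/Chop-/- libraries 1 to 4 it was 9754, 13029, 5110 and 6326 CPM, so the groups overlapped. PiZ/Chop-/- library 3 lay below PiZ libraries 2 to 4 in this sum, and PiZ/Chop-/- library 4 below PiZ library 2. All 12 tested genes of this list, like the 12 Mup genes, were lowest in PiZ library 1.

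The female-biased list of 28 genes ran partly the other way. Of 17 tested, 1 fell with edgeR, 7 were positive and 10 negative, with a median of -0.76, which was -0.12 without PiZ library 1 (8 positive, 9 negative). The gene that fell was Cyp3a44, a cytochrome P450, from 20.3, 9.72, 5.79 and 11.4 CPM in PiZ to 1.39, 0, 0.993 and 0.932 CPM in PiZ/Chop-/- (-3.65 on the log2 scale, SE 0.59, adjusted p = 0.00458). Without PiZ library 1 its log2 fold change was -3.27 (SE 0.60) and it still passed (adjusted p = 0.0184, edgeR). Without PiZ libraries 1 and 4, an omission added after seeing the data, it was -3.06 and Cyp3a44 did not pass (adjusted p = 0.0509). In the list 5 genes had an unadjusted p below 0.05, reached by 13.1% of all genes tested. DESeq2 called 3 as lower (Cyp3a44, Cyp2a22 and Prom1, where 1.1% of all genes were) and limma-voom 1 (Cyp3a44). Summed over the list, the level was 1106, 780, 820 and 780 CPM in PiZ and 385, 426, 724 and 713 CPM in PiZ/Chop-/-, so the libraries lowest in this sum, PiZ/Chop-/- 1 and 2, were those highest in Hsd3b5 and in the summed Mup level.

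**Figure D4:**
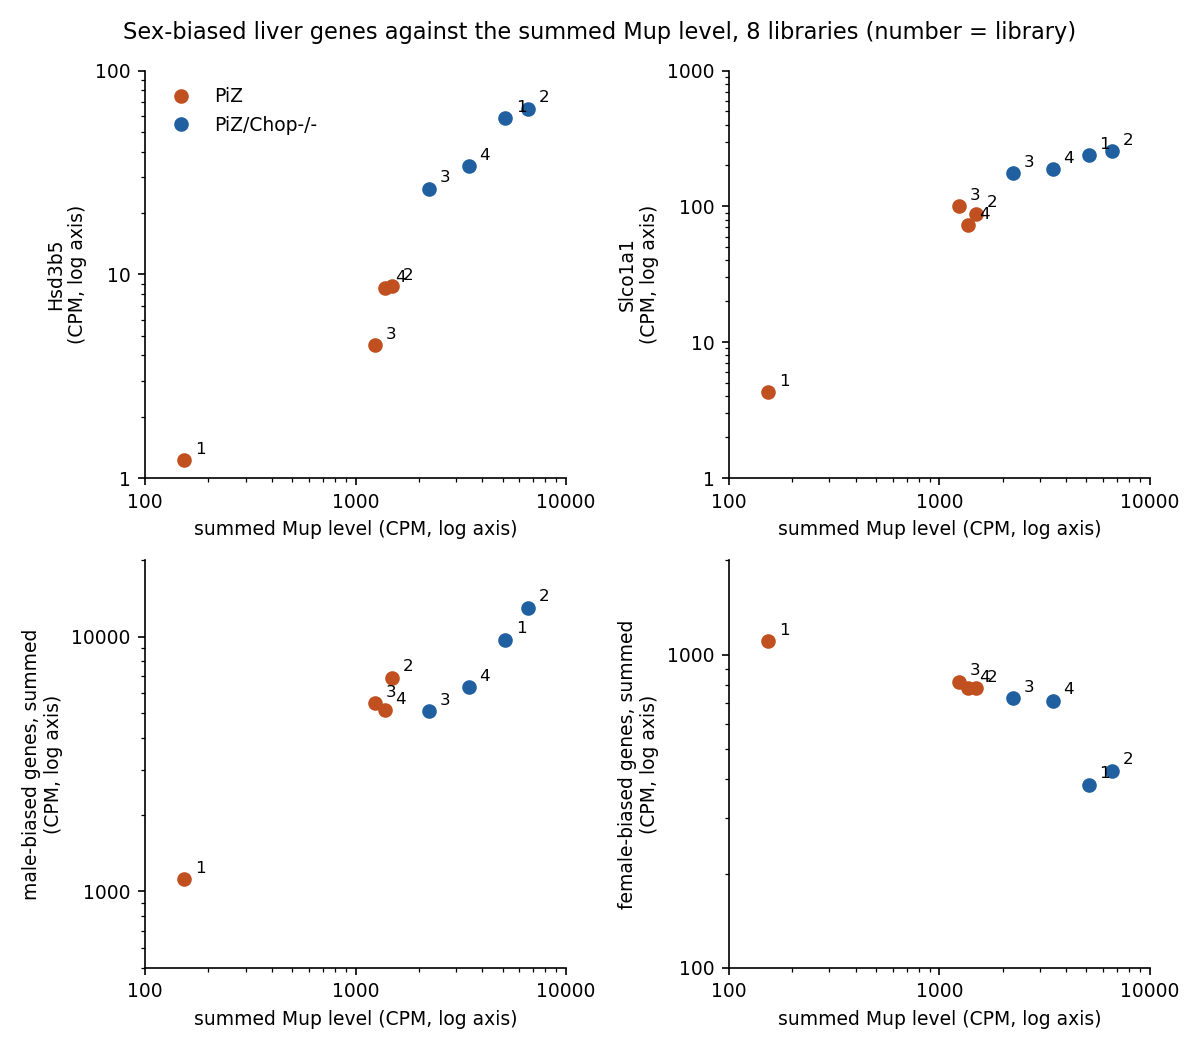
Level of Hsd3b5, of Slco1a1 and of the male-biased and female-biased lists (vertical axes, CPM, log) against the summed Mup level (horizontal axis, CPM, log) in the 8 libraries; digits are library numbers, orange is PiZ and blue PiZ/Chop-/-. PiZ library 1 sits alone at the left with a Mup sum of 154 CPM, and PiZ/Chop-/- libraries 1 and 2 sit at the right with the lowest female-biased sums, 385 and 426 CPM.

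Of 19 genes of growth hormone signalling, 17 were tested, and 1 rose and 0 fell. Over all genes tested, 0.335% passed as higher and 0.692% as lower. In the list 9 were positive and 8 negative, and the median was 0.02. The gene that rose was Ghr, the growth hormone receptor, with 67.0, 59.8, 84.6 and 67.9 CPM in PiZ and 129, 119, 145 and 162 CPM in PiZ/Chop-/- (log2 fold change 0.99, SE 0.18, adjusted p = 0.0139). Without PiZ/Chop-/- library 3, and likewise without PiZ/Chop-/- library 4, 0 genes of this list passed, so Ghr no longer did. PiZ library 1 was not low in Ghr. Stat5b, the main signal carrier for the male programme, differed by -0.0046 on the log2 scale (SE 0.22, adjusted p = 0.997). Igfals (0.76, adjusted p = 0.102), Onecut1 (2.23, 0.185) and Igfbp2 (0.83, 0.217) did not pass with edgeR (DESeq2 called Ghr, Igfals and Onecut1). Onecut1 had 10.4 to 73.4 CPM in PiZ and 92.8 to 183 CPM in PiZ/Chop-/-. In PiZ the 4 Onecut1 values did not follow the Mup sum: library 1 had 20.9 CPM, above libraries 3 and 4.

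Within the 3-beta-hydroxysteroid dehydrogenase family, 6 of 8 listed relatives of Hsd3b5 were in the table and 1 had enough counts to test. That gene, Hsd3b3, had 165, 317, 298 and 258 CPM in PiZ and 466, 344, 340 and 390 CPM in PiZ/Chop-/-. The groups did not overlap, and its log2 fold change of 0.57 (SE 0.21) did not pass (adjusted p = 0.275). Hsd3b2 had 1.23 to 11.4 CPM in PiZ and 4.60 to 10.9 CPM in PiZ/Chop-/-, and Hsd3b4 and Hsd3b6 had 0 counts in every library.

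Markers of other liver cells were looked at in the same fit. None of the tested markers passed with edgeR: 0 of 2 for cholangiocytes, 0 of 6 for stellate cells, 0 of 7 for macrophages, 0 of 7 for endothelium, 0 of 2 for neutrophils and 0 of 5 for red cells, with no lymphocyte marker abundant enough to test. At an unadjusted p below 0.05, reached by 13.1% of all genes tested, these lists held 1, 1, 2, 0, 0 and 1 markers. DESeq2 called 1 of them, the stellate cell collagen Col1a1, and limma-voom 0. With edgeR all 6 stellate cell markers were negative (median log2 fold change -0.50), as were 6 of 7 macrophage markers (-0.33). All 5 red cell markers were positive (0.38), and of the endothelial markers 5 were positive and 2 negative (0.31). Cholangiocyte and neutrophil markers each had 1 positive and 1 negative. Summed macrophage markers were 588 to 948 CPM in PiZ and 457 to 608 CPM in PiZ/Chop-/-, and summed stellate cell markers were 315 to 431 CPM and 236 to 364 CPM. Neutrophil markers were highest, at 85.6 CPM, in PiZ/Chop-/- library 2, the library highest in the Mup sum, and 3.72 to 32.1 CPM elsewhere. Red cell markers were highest in PiZ/Chop-/- library 3, the lowest of its group in the Mup sum, with 1455 CPM there and 341 to 832 CPM elsewhere. Cholangiocyte markers were 44.6 and 50.0 CPM in PiZ/Chop-/- libraries 1 and 2, 18.9 and 21.0 CPM in libraries 3 and 4, and 29.4 to 45.3 CPM in PiZ. The part of these markers in the Mup and Hsd3b5 values was not tested. None of the 11 hepatocyte markers had its lowest value in PiZ library 1; in the comparison of the groups 0 of 11 passed, 3 at an unadjusted p below 0.05, and 0 with DESeq2 or limma-voom.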

How the data were processed

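Liver RNA of 8 libraries was prepared with a QuantSeq 3′ mRNA kit and read from one end, per the labels' protocols. Per the file headers, the deposited tables hold raw counts, and STAR, HTSeq and mm10 are named without versions in the submitters' processing notes. Each table held 52550 Ensembl identifiers, of which 52403 were found in GENCODE mouse M21 (symbols, positions, transcripts), and 1 other row, which was kept in library sizes. Groups and replicate numbers came from sample titles.

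Genes were filtered with filterByExpr (minimum count 10), scaled by TMM and tested with edgeR 4.0.16 (glmQLFit robust, glmQLFTest) in R 4.3.3, with Benjamini-Hochberg adjustment over 8669 genes and a threshold of 0.05. The test was tested on simulated data. Log2 CPM used a prior count of 2. No test of summed levels, shares or lists is reported. The alternative fit with the Mup genes summed held their sum among its genes, and the p-value of that sum is not given. Alternatives used DESeq2 1.42.0, limma 3.58.1 (voom), other scalings and filters, a replicate block, Mup genes summed, and each library left out. The omission of PiZ libraries 1 and 4 together was added after seeing the data. The members and gene lists were chosen with earlier results of these data known.

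Genes were named by rule: every member, every Mup gene with a count, genes past the threshold or up to 4 of lowest p in each list, and the 5 genes with mean log2 CPM of at least 3 nearest in profile to Hsd3b5 and to the Mup sum. Stat5b, Hsd3b2, Hsd3b4, Hsd3b6, Sult2a1, Sult2a2, Sult3a1, Cyp2a4, Cyp3a16, Cyp3a41a, Cyp3a41b and Mup-ps22 were named after their values were seen.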

Additional observations from a re-analysis of the deposited data

Results flagged for a closer look

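The lowest or highest of 4 libraries was checked against the distance to its neighbour (Dixon's test at 95%) in 40 groups of values, of which chance picks out about 1 in 20. The groups are not independent, since most hold the same libraries. PiZ library 1 stood apart for Mup3 on the log2 CPM scale, at 6.78 with the nearest PiZ library at 9.38. It did so for Mup17 as well, at 11.7 CPM with the nearest at 182 CPM, and at 3.66 against 7.51 on the log2 scale. The summed Mup level of this library, 7.28 in log2 CPM, was also far from the nearest PiZ value, 10.28. For Mup7, PiZ library 4 was picked out at 0.949 CPM (0.92 in log2 CPM), which is 2 counts where the other PiZ libraries had 0.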

How the results depend on the processing

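Hsd3b5 passed in all 20 alternatives, with log2 fold changes of 2.69 to 3.21 and adjusted p-values up to 0.0258. Over all 7 tested members, 130 of 134 alternative values kept their direction and their side of the threshold, none was reversed, and 4 newly passed: Mup11 with DESeq2 (adjusted p = 0.0388), Mup21 without a filter (8.21e-05), and Mup3 without PiZ library 1 (0.0169) and without PiZ libraries 1 and 4 (0.0358). The members past the threshold were thus 2 with DESeq2, 3 without a filter (Hsd3b5, Mup21 and Mup7, which that setting could test, adjusted p = 0.0139), 2 without PiZ libraries 1 and 4, and 1 to 2 when each library was left out. The log2 ratio of the summed Mup level, 2.03, ran from 1.67 to 2.25 when each library was left out.

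The 89 genes past the threshold became 208 with DESeq2 and 357 without a filter. They ranged from 46 to 169 when each library was left out, with 53 without PiZ library 3 and, without PiZ/Chop-/- libraries 1 to 4 in turn, 49, 169, 46 and 51. Replicate numbers did not pair the libraries: correlations between same-numbered libraries were 0.046, -0.051, 0.0061 and 0.049. With a replicate block 76 genes passed, Hsd3b5 among them (2.92, adjusted p = 0.00652), and 1 member as before.

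Depth limits Mup2, Mup7 and the Hsd3b5 level in PiZ library 1, which rest on few counts. Shared 3′ ends limit Mup1, Mup2, Mup7, Mup10 and Mup15 and, in part, Mup9, Mup11, Mup12, Mup16, Mup17 and Mup18 taken singly.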

Other observations

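PiZ library 1, lowest in the Mup genes and Hsd3b5, held Sult2a1 and Sult3a1, genes of the female-biased list that were near absent elsewhere. Sult2a1, a sulfotransferase of steroids and bile acids with near-identical relatives, had 86 counts there and 0 in the other 7 libraries. Sult3a1 had 13 counts there and at most 1 elsewhere. Other genes of the list did not all follow. Cyp2a4 had 87.3 CPM in PiZ library 1 and 253, 260 and 208 CPM in PiZ libraries 2 to 4. Cyp3a16, Cyp3a41a, Cyp3a41b and Sult2a2 had 0 counts in every library. Of 17 tested genes of the female-biased list, 9 had their highest value of the 8 libraries in PiZ library 1. Over all 8669 genes tested, 1068 did. For the female-biased list the median difference from the median of PiZ libraries 2 to 4 was 0.68 on the log2 scale. For male-biased genes that median difference was -2.06 and for Mup genes -2.98. Xist had 3 counts in this library and Ddx3y 92.3 CPM, a level within the range of the other libraries. These genes were picked after their values were seen, and no test was made.

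Other lipocalins did not move with the Mup genes as a list: of 8 tested with edgeR, 1 fell and 0 rose, with 3 positive and 5 negative and a median log2 fold change of -0.21. The one that fell was Lcn2, an acute-phase lipocalin, with 148, 86.0, 76.2 and 50.8 CPM in PiZ and 17.7, 8.05, 18.4 and 27.9 CPM in PiZ/Chop-/- (-2.30, SE 0.38, adjusted p = 0.0113, edgeR). With edgeR, C8g, a complement component (0.71, adjusted p = 0.0690), Apom (0.50, 0.286) and Rbp4 (-0.29, 0.558) did not pass; DESeq2 called C8g as higher and Lcn2 as lower. Of 6 fetal hepatocyte genes 1 was tested, and it fell: Afp, alpha-fetoprotein, from 13.1 to 34.6 CPM in PiZ to 0.496 to 2.33 CPM in PiZ/Chop-/- (-4.09, SE 0.48, adjusted p = 0.000243, edgeR). The groups did not overlap.

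The processed pseudogene Mup-ps22 lies outside the cluster, on chromosome 11, and the 3′ end of its annotated transcript matched no other transcript. It had 5, 38, 132 and 238 counts in PiZ and 181, 264, 101 and 268 in PiZ/Chop-/- (log2 fold change 1.20, adjusted p = 0.615, edgeR). Among PiZ libraries it was highest in library 4 and Mup3 in library 2, while both were lowest in library 1. Of 27 Mup pseudogenes in the table, 10 had a count.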
